A study of Mus musculus with 2 samples.

Results

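Epicardial identity and mesothelial genes were followed in the hearts of 2 newborn mice. The set held 10 named genes, Wt1, Tcf21, Aldh1a2, Upk3b, Upk1b, Msln, Lrrn4, Krt8, Krt18 and Krt19, chosen by symbol and found by Ensembl identifier, out of 43346 Ensembl genes and 69691 features in all. The transcript tables held 19 transcripts of these genes. Total RNA came from whole hearts of the inbred strain B6NCrl on postnatal day 0, with 1 heart in each library. Replicate 1 was pup 2 and replicate 2 was pup 3 of pregnancy 1, so that the animals were littermates. No allele, agent or other treatment is named for either pup, sex was not collected, and both samples carry 1 donor identifier. There was 1 group (n = 2), no other age, tissue or condition, and the series' purpose is not stated. The data therefore give levels of genes within the neonatal heart and ratios between the littermates, without a test between groups.

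The epicardium is the mesothelium that covers the heart. It supplies signals to the growing muscle, and in the embryo some of its cells lose their epithelial character, enter the wall and give rise to fibroblasts and mural cells. Mesothelial cells are epithelial in form: they carry keratin filaments and surface proteins such as mesothelin and uroplakins, while the developing epicardium also makes retinoic acid and expresses the transcription factors Wt1 and Tcf21. None of these genes marks the outer layer alone. Tcf21 is also expressed in cardiac fibroblasts, Wt1 has been seen in endothelial cells, simple keratins occur in many epithelia, and the pericardium and pleura are mesothelia too.

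For Wt1, the splice forms carry part of the result, and the junction that separates its best known forms is shown first. Wt1 transcripts differ at the end of an exon by 9 bases that add lysine, threonine and serine (KTS) between zinc fingers. Forms with and without them are known to bind nucleic acid differently. The transcripts below are on the plus strand of mm10. They join chr2:105170000-105170018, or chr2:105170000-105170009 without the extra bases, to chr2:105172223-105172232. Capitals mark the KTS bases, and the sequences come from the GENCODE M21 transcripts, whose lengths matched those in the deposited tables for all Wt1 forms.

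Wt1-205: actcatacagGTAAAACAAgtgaaaagcc

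Wt1-202: actcatacaggtgaaaagcc

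Promoter windows, from 250 bases before to 50 after the RefSeq start on GRCm38.p6, were at hand for 6 of the 10 genes. The windows of the neighbouring keratin partners Krt8 (minus strand, chr15:102004293-102004592) and Krt18 (plus strand, chr15:102027966-102028265) are shown because the pups differed more in Krt8 than in Krt18. Those of Upk3b (plus strand, chr5:136038246-136038545) and Lrrn4 (minus strand, chr2:132880813-132881112) are shown as mesothelial surface genes that shared a match. Capitals mark matches to GGAATG (an element of TEAD factors), CAGCTG (an E-box of basic helix-loop-helix factors), GGGCGG (Sp1), GTGGGAG (core of a Wt1 element), each on both strands, and TATAAA on the gene's strand.

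Krt8: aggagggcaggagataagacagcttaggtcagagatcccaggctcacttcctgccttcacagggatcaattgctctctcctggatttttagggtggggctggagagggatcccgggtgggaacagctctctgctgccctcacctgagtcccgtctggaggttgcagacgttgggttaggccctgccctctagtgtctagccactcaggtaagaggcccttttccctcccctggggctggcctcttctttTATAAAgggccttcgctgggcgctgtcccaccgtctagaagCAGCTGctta

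Krt18: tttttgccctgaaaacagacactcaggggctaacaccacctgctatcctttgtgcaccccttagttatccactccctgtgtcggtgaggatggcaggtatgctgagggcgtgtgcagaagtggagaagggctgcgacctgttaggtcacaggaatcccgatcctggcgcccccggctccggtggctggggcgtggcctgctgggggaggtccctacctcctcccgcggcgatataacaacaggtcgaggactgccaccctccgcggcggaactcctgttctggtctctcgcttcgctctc

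Upk3b: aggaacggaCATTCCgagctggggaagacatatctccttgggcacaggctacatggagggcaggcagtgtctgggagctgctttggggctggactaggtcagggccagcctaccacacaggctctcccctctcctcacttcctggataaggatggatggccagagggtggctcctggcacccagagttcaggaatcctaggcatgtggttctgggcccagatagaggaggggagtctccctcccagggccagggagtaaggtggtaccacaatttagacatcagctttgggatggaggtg

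Lrrn4: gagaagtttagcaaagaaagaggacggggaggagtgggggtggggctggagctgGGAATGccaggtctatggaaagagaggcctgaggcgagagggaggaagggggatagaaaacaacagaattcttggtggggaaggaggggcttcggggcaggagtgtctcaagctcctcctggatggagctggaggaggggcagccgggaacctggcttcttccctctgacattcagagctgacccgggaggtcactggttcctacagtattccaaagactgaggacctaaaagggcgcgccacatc

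Krt8 held TATAAA at -1 and CAGCTG at 40, both as distance of the first base from the RefSeq start. Upk3b held GGAATG at -241, read on the minus strand as CATTCC, and Lrrn4 held it at -196. The windows of Krt18, Tcf21 and Aldh1a2 had no match to any of the 5 motifs. Among 32851 promoters of the same length, 14.7% held GGAATG, 16.3% CAGCTG, 35.7% GGGCGG, 9.73% GTGGGAG and 8.32% TATAAA. No match was overlapped by another. GC content was 78% for Aldh1a2, with 50 CpG dinucleotides, and 53.3% to 61.3% for the other 5 windows, against a median of 52.7% over all promoters. These are descriptions of letters and no binding was measured.

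Expected counts, the estimated reads per gene, totalled 46151722 in the first pup's library (replicate 1) and 44707283 in that of its littermate (replicate 2). Levels are in TPM (a transcript's share of the library after division by length, scaled to a fixed total). A count of 3 corresponded to between 0.0217 and 0.0707 TPM for these genes, a floor that covers counting error only. Heart muscle was evident, with all 10 cardiomyocyte markers detected led by Actc1, Myl2, Tnnt2 and Nppa, and summing to 68670 and 65176 TPM. Detected means at least 1 TPM in each of the libraries.

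All 10 epicardial and mesothelial genes were detected, at levels from 5.16 to 43.7 TPM. Together they summed to 185 TPM in replicate 1 and 194 TPM in replicate 2, and the cardiomyocyte markers summed to 371-fold and 336-fold more. They ranked between 2469 and 9073 among Ensembl genes, and the median over the 12812 genes detected in both hearts was 11.1 TPM. In bulk tissue, few cells of a type and little RNA per cell cannot be told apart. The posterior SD of the gene count was 0% of its mean for all 10 genes in both libraries, so that no reads were shared with other genes in the deposited estimates.

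**Figure D1:**
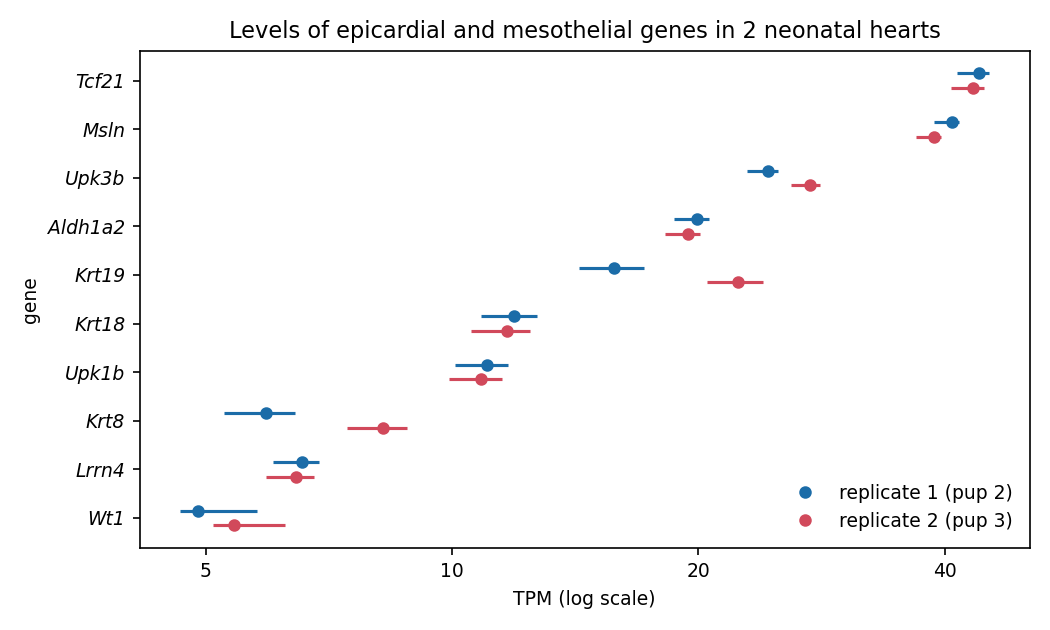
Level of each gene in TPM (log scale, horizontal axis) in replicate 1 (pup 2, blue) and replicate 2 (pup 3, red). Points are the deposited TPM and lines the deposited credibility intervals, which do not overlap between the pups for Upk3b, Krt19 and Krt8.

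Of the transcription factors, Tcf21 led the set and Wt1 was the lowest of it. Tcf21 (ENSMUSG00000045680.7, chr10:22817281-22820174) encodes a basic helix-loop-helix factor needed for cardiac fibroblasts to form from the epicardium. Its level was 44.0 TPM in the heart of replicate 1 and 43.3 TPM in the other, a mean of 43.7 ± 0.502 (SD, n = 2). Those values rested on 1888 and 1838 counts, with a coefficient of variation of 1.15%. Wt1 (ENSMUSG00000016458.9, chr2:105126529-105173616), a zinc finger factor required for epicardial development, stood at 4.90 and 5.41 TPM, on 478 and 496 counts. The deposited credibility intervals, whose width is not stated, overlapped for Wt1, from 4.66 to 5.77 TPM and from 5.10 to 6.25 TPM. Annotation places the antisense gene Gm10824 over Tcf21 on the other strand. It had no row in the deposited tables. The use of strand in counting is not stated, and reads from Gm10824 and Tcf21 cannot be told apart.

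Aldh1a2 (ENSMUSG00000013584.5, chr9:71215789-71296243), the retinaldehyde dehydrogenase that makes retinoic acid in the epicardium, stood at 19.9 and 19.4 TPM, on 1646 and 1587 counts. The pups were close, with a mean of 19.7 ± 0.354 TPM (n = 2). The levels of its relatives covered a wide range. Aldh1a1, which oxidises retinaldehyde as well, was at 2.75 and 6.97 TPM. Aldh1a3, the third enzyme of this kind, stood at 1.04 and 0.940 TPM. Aldh1a7, a close relative of Aldh1a1, rested on 14 and 56 counts (0.190 and 0.750 TPM). Aldh1b1, a mitochondrial enzyme, was far more abundant at 156 ± 5.27 TPM (n = 2). Aldh1a2 was thus the most abundant of the 3 cytosolic retinaldehyde dehydrogenase genes in both hearts. Of the 3 relatives with enough counts to be tested, Aldh1a1 was the one past 2-fold between the hearts (log2 ratio 1.35). Over all genes tested the share past 2-fold was 0.498%. Annotation also places a processed pseudogene, Gm48124, within Aldh1a2 on the other strand, with no row in the deposited tables.

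Among surface genes, Msln was the most abundant and its level was close in both hearts. Msln (ENSMUSG00000063011.6, chr17:25748613-25754378) encodes mesothelin, a membrane-anchored glycoprotein of mesothelia, and stood at 40.8 and 38.8 TPM on 3138 and 2949 counts. Upk3b (ENSMUSG00000042985.6, chr5:136038496-136046487), a uroplakin used as a mesothelial marker, was at 24.3 and 27.4 TPM on 2086 and 2324 counts. Here the intervals did not overlap, running from 22.9 to 25.005 TPM and from 25.9 to 28.1 TPM, as for 17.6% of all genes tested in either direction. Upk1b (ENSMUSG00000049436.4, chr16:38773184-38800328), a tetraspanin uroplakin, stood at 11.05 and 10.85 TPM on 704 and 684 counts. Lrrn4 (ENSMUSG00000043110.2, chr2:132868305-132880891), a leucine-rich repeat membrane protein gene, was at 6.56 and 6.45 TPM on 905 and 881 counts. Of these 4 genes, Upk3b was the one that stood apart between the pups.

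The other uroplakins, which line the bladder with Upk1b, were all under 1 TPM. Upk1a had 23 and 21 counts (0.46 TPM in replicate 2), Upk2 had 0 and 1 counts, and Upk3a had 0 and 4. Upk3bl, which lies beside Upk3b on chromosome 5, had 1 and 2 counts. Neighbours of other members were likewise low: Mslnl next to Msln had 1 count in each library, and Wt1os, which lies on the opposite strand beside Wt1, had 12 and 20 counts (0.320 and 0.590 TPM).

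The 3 keratin genes split, since Krt8 and Krt19 were higher in replicate 2 and Krt18 was not. Krt8 (ENSMUSG00000049382.9, chr15:101996698-102004482) encodes a type II keratin that pairs with type I partners in filaments. It was at 5.93 and 8.23 TPM, on 386 and 530 counts. Krt19 (ENSMUSG00000020911.10, chr11:100140810-100148665), a small type I keratin, stood at 15.8 and 22.4 TPM on 732 and 990 counts. Krt18 (ENSMUSG00000023043.6, chr15:102028180-102032027), the usual type I partner of Krt8, stood at 11.9 and 11.7 TPM on 592 and 573 counts. The intervals of Krt8 (5.26 to 6.43 against 7.45 to 8.81 TPM) and of Krt19 (14.3 to 17.2 against 20.5 to 24.0 TPM) did not overlap between the pups, whereas those of Krt18 (10.8 to 12.7 against 10.6 to 12.4 TPM) did. Krt8 and Krt18 lie 23697 bases apart on chromosome 15, in opposite directions. Annotation places the non-coding gene Gm36026 over the 5' end of Krt8 on the other strand, again with no row in the deposited tables.

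Keratins of simple epithelia prevailed over those of stratified ones. Of 54 keratin genes with a matched symbol, 8 were detected in both hearts, and Krt8, Krt18 and Krt19 held 59.2% and 61.8% of the summed keratin TPM. Krt7, another type II keratin of simple and mesothelial epithelia, stood at 7.59 and 7.67 TPM. Summed over the main simple forms, the type I genes Krt18 and Krt19 came to 27.7 and 34.05 TPM and the type II genes Krt7 and Krt8 to 13.5 and 15.9 TPM. The type I sum was thus 2.05-fold and 2.14-fold the type II sum, closer between the pups than Krt18 over Krt8 (2.01-fold and 1.42-fold). Krt19 over Krt8 was closer still (2.66-fold and 2.72-fold). Other detected keratins of the list were Krt222 at 5.59 ± 0.481 TPM, Krt10 at 5.11 ± 0.0778 TPM and Krt14 at 2.25 ± 0.106 TPM (n = 2), and Krt80 was detected at 1.74 and 1.28 TPM. Krt5, the stratified partner of Krt14, had 0 and 3 counts. Krt15, a basal keratin, had 12 counts (0.310 TPM) in replicate 1 and 127 counts (2.10 TPM) in replicate 2, a log2 ratio of 3.23.

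Ordered by mean TPM the genes ran Tcf21, Msln, Upk3b, Aldh1a2, Krt19, Krt18, Upk1b, Krt8, Lrrn4 and Wt1. A pair was called where both pups gave the same sign, the mean log2 ratio of TPM + 1 exceeded the difference between the pups, and the intervals were apart in both. By this rule 4 of the 9 neighbours in the order were separated. Msln exceeded Upk3b 1.54-fold in mean TPM, Upk3b exceeded Aldh1a2 1.31-fold, Krt19 exceeded Krt18 1.62-fold and Upk1b exceeded Krt8 1.55-fold. The other 5 pairs, Tcf21 and Msln, Aldh1a2 and Krt19, Krt18 and Upk1b, Krt8 and Lrrn4, and Lrrn4 and Wt1, were not separated. Aldh1a2 was above Krt19 in replicate 1 (log2 ratio 0.32) and below it in replicate 2 (-0.20), and Krt8 and Lrrn4 stood in opposite order in the pups as well. Between partners, Krt18 exceeded Krt8 1.67-fold, Krt19 exceeded Krt8 2.70-fold and Upk3b exceeded Upk1b 2.36-fold, all 3 called. On counts not divided by length, Krt18 over Krt8 was no longer called (mean log2 ratio 0.33 against 0.68). Aldh1a2 over Krt19 had a mean log2 ratio of 0.89 against 0.06. No call is read from it, because the intervals remained those of TPM, which lay apart in opposite directions in the pups. On that scale 3 of the pairs not separated by TPM turned in sign, with mean log2 ratios of -0.69 for Tcf21 over Msln, -0.24 for Krt18 over Upk1b and -0.91 for Krt8 over Lrrn4. The order given is thus one of levels per length. With 2 pups the smallest two-sided p of an exact sign-flip test is 0.5, and no p is given.

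Wt1 RNA was divided among several transcripts, and on the deposited point estimates forms with KTS exceeded those without. Of the 8 Wt1 transcripts in the tables, 3 coding ones had 0 counts in both hearts. Wt1-205, with KTS and with a 51-base exon (chr2:105144142-105144192), was the main transcript of the gene in both pups, at 45.1% and 36.7% of gene TPM and 252 and 224 counts. Wt1-202, which lacks KTS, held 35.4% and 25.5% on 155 and 122 counts. Within each pup its interval (1.02 to 2.33 and 0.813 to 1.98 TPM) overlapped that of Wt1-205 (1.54 to 2.52 and 1.43 to 2.27 TPM). The rank of Wt1-205 is therefore one of point estimates. Wt1-201, which has KTS but lacks the 51-base exon, held 12.4% and 24.9% on 53.3 and 117 counts. Summed over coding forms, those with KTS held 57.5% and 61.6% of Wt1 and those without 35.4% and 25.5%. Forms with the 51-base exon held 80.5% and 62.2%, against 12.4% and 24.9% for those without it.

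Wt1-201 and Wt1-202 begin at a first exon inside the gene (chr2:105130883-105131152), 1 of the known alternative starts of Wt1. These held 47.8% and 50.4% of Wt1 TPM, against 45.1% and 36.7% for Wt1-205, which begins at chr2:105126529-105127442. By counts, the 2 forms together had 208 and 239, against 252 and 224 for Wt1-205. The order of the starts thus turned in replicate 1 between TPM and counts. The split between forms was imprecise. The posterior SD was between 20.2 and 28.4 counts for each of these 3 transcripts, and the intervals of Wt1-201 (0.0530 to 1.28 TPM and 0.672 to 1.95 TPM) overlapped between the pups, as did those of Wt1-202 and Wt1-205. Both transcripts that retain an intron stayed at or under 0.550 TPM in either heart, with 17.6 and 32.96 counts together.

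**Figure D2:**
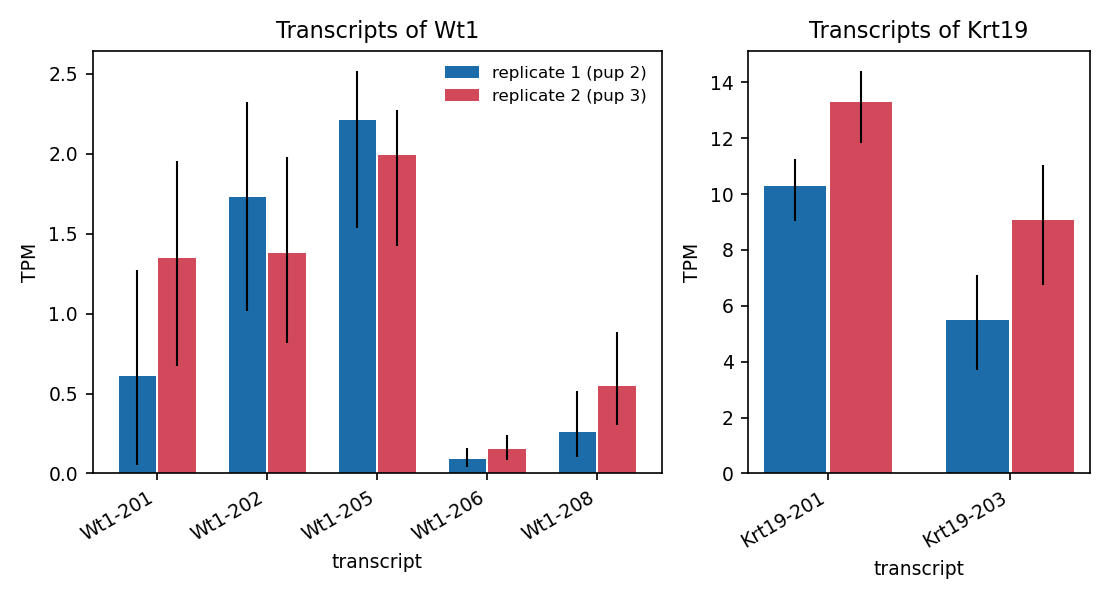
TPM of the Wt1 and Krt19 transcripts with a count in either library, in replicate 1 (blue) and replicate 2 (red). Bars are the deposited TPM and black lines the deposited credibility intervals, which overlap between the pups for all Wt1 transcripts shown and are apart for Krt19-201 alone.

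Krt19 was the other gene with several transcripts. The coding transcript Krt19-201 was at 10.3 and 13.3 TPM, and the intervals did not overlap (9.04 to 11.2 against 11.8 to 14.4 TPM). Krt19-203, an 823-base form annotated as non-coding, stood at 5.50 and 9.08 TPM, with overlapping intervals (3.71 to 7.12 against 6.75 to 11.04 TPM). It differs from the coding form by a first exon of 34 bases (chr11:100143666-100143699) and by its 3' end. By TPM the coding transcript made up 65.2% and 59.5% of Krt19, and by counts, which do not weigh short transcripts more, 79.2% and 74.9%. The other 8 genes had 1 transcript each in the tables.

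Between the littermates no gene of the set differed past 2-fold. The log2 ratio of replicate 2 to replicate 1, from counts scaled by TMM (trimmed mean of M values) with a prior count of 2, ran from -0.06 for Msln to 0.49 for Krt8. All 10 genes had a mean count of 50 or more. Of 13463 genes tested with that minimum 67 lay past 2-fold (0.498%), so that 0 of 10 is near the background. The median over the set was -0.00868, against -0.00219 over all genes tested. For 7 of the 10 genes the log2 ratio was under 0.1 in size, and for Tcf21 (-0.01), Lrrn4 (-0.01), Upk1b (-0.01), Krt18 (-0.02) and Aldh1a2 (-0.02) it was close to 0.

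Krt8 and Krt19 stood out from the rest of the set, yet within the range of other genes. The log2 ratio of Krt8 was 0.49 (1.40-fold) and that of Krt19 0.46 (1.38-fold), and 3.69% and 4.10% of all genes tested lay at least as far from 0. Upk3b followed at 0.19, which 26.7% of genes reached, and Wt1 at 0.08. By interval, 3 of the 10 genes were apart and higher in replicate 2 (Krt8, Krt19 and Upk3b), beside 7.07% of all genes tested, and 0 were lower, beside 10.6%. The intervals cover reads and not animals, and with 1 library per pup such differences have no replicate check. Without the 3 keratins, the remaining 7 genes summed to 151.6 TPM in each heart, where a higher Upk3b in replicate 2 offset lower values such as Msln. The keratins summed to 33.6 and 42.3 TPM, and Krt18 had no part in that rise.

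**Figure D3:**
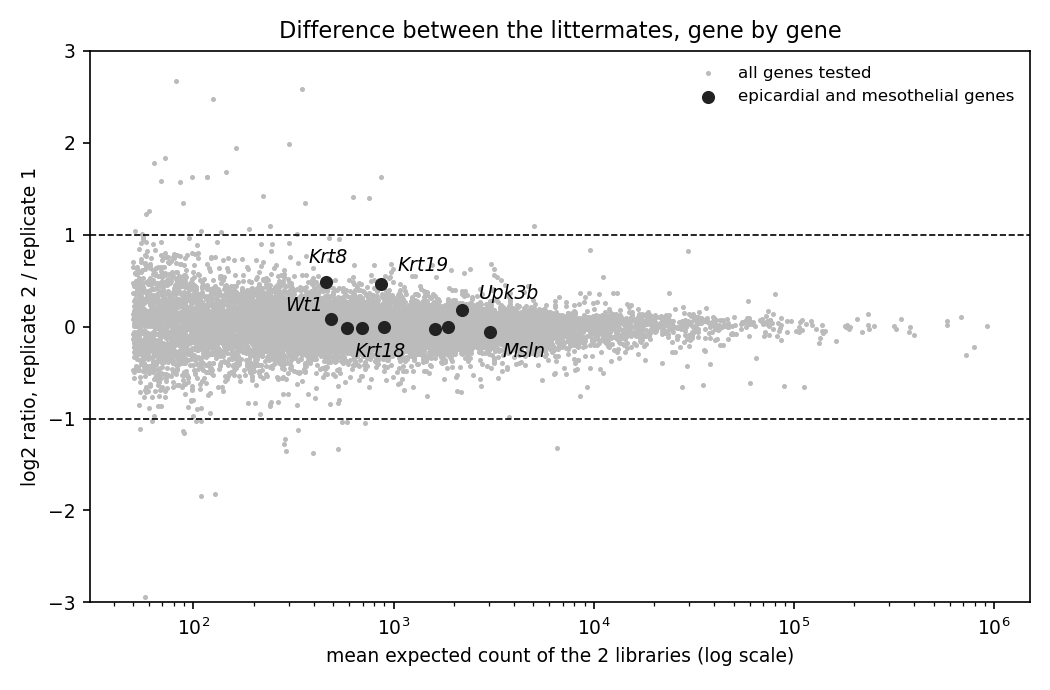
Log2 ratio of replicate 2 to replicate 1 against the mean expected count (log scale) for 13463 genes (grey) and the 10 epicardial and mesothelial genes (black). Dashed lines mark 2-fold, 19 genes lie beyond the vertical axis at -3 and 3, and Krt8 and Krt19 are the black points farthest from 0.

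Markers of lung and airway epithelium, where simple keratins are also expressed, differed between the same libraries. The 24 genes of that list summed to 72.4 TPM in replicate 1 and 725 TPM in replicate 2, and 5 of them were detected in both. Of 10 tested, 5 were past 2-fold higher in replicate 2 and 2 lower, beside 0.498% of all genes tested in either direction. Scgb3a2, a secretory protein of airway club cells, stood at 2.96 and 563 TPM, and Scgb1a1, another of these, at 0.970 and 74.3 TPM. Cbr2 (1.84 and 33.3 TPM), Cyp2f2 (0.0400 and 10.7 TPM) and Sec14l3 (0.150 and 3.01 TPM) were higher in replicate 2 as well. Lower in replicate 2 were Sftpc, the surfactant gene of alveolar type II cells, at 25.5 and 0.340 TPM, and Ager, a gene of alveolar type I cells, at 1.47 and 0.650 TPM. Hopx, which heart muscle also expresses, was at 31.2 and 32.2 TPM, and Abca3, a lipid transporter of alveolar type II cells, at 3.24 and 2.43 TPM. Grhl2, an epithelial factor gene and the last of those tested, was at 1.33 and 1.19 TPM (log2 ratio -0.16). The remaining genes of the list fell under the count minimum for testing. Of these, Nkx2-1 had 3 counts in each library, and Cldn18 had 13 and 0. Intervals were apart and higher in replicate 2 for Foxj1 (3 and 74 counts) and Sftpd (15 and 66). They were apart and lower for Sftpa1 (57 and 10) and Slc34a2 (41 and 2).

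Of the epithelial genes named next, some were higher in replicate 2 and the rest were close in both libraries. Epcam, an adhesion molecule of epithelia that mesothelium largely lacks, stood at 0.0700 and 0.870 TPM, and Cdh1, the epithelial cadherin, at 0.140 and 0.400 TPM, with intervals that overlapped for Cdh1 and not for Epcam. Epcam and Cdh1 were below the count minimum for testing, with 5 and 64 counts and with 19 and 65 (log2 ratios 3.26 and 1.70). Krt15 and Aldh1a1 were past 2-fold higher in replicate 2. Grhl2 of the lung and airway list, the plakin gene Evpl (0.340 TPM in both) and Krt7 had log2 ratios of -0.16, 0.01 and 0.08. Krt18 had one of -0.02. These genes were picked with their values known and form no fixed list. The part of airway RNA in the ratios of Krt8, Krt19 and Upk3b was not tested.

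Other epicardial and mesothelial genes were mostly detected. Of a list of 34 such genes 33 were matched, 27 were detected in both hearts, and they summed to 564 and 570 TPM. The most abundant were Cav1, a caveola gene shared with endothelium, at 256 ± 0.375 TPM, the transcription factors Gata4 (53.7 ± 0.255 TPM) and Gata6 (44.05 ± 1.78 TPM), which heart muscle also expresses, and Nkain4 (21.7 ± 0.990 TPM; n = 2 each). Among factors of the embryonic epicardium, Tbx18 stood at 2.84 and 3.30 TPM, the secreted guidance gene Sema3d at 2.64 and 2.90 TPM and Scx at 6.42 and 5.59 TPM. Bnc1, a mesothelial zinc finger gene, was under the threshold at 0.890 and 0.720 TPM, and Calb2, the mesothelial marker calretinin, had 3 and 7 counts. Of 28 genes tested 0 were past 2-fold, near the 0.498% of all genes tested, and the median log2 ratio was 0.04. Intervals were apart for 2 genes higher in replicate 2 and for 2 lower, beside 7.07% and 10.6% of all genes tested.

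Genes of epicardial signalling and of the epithelial to mesenchymal change were detected in 22 of 25 cases. Tmsb4x, an actin-binding peptide gene, led at 1584 ± 45.9 TPM, followed by the growth factor gene Igf2 at 749 ± 50.9 TPM, Ctnnb1 at 128 ± 6.72 TPM and Cdh2, the cadherin of heart muscle and mesothelium, at 118 ± 11.2 TPM (n = 2). Epo and Fgf20 were listed at 0 counts in both. Of a list of desmosome, plakin and adhesion genes 8 of 17 were detected, led by Perp (303 ± 3.903 TPM), Jup (105 ± 3.47 TPM), Pkp2 (79.8 ± 2.34 TPM) and Plec (58.7 ± 1.18 TPM). Not all of these bind keratin. The filament genes Vim (538 ± 7.83 TPM) and Des (470.0 ± 22.3 TPM) stood far above every keratin, with Lmna at 87.9 ± 7.25 TPM and Lmnb1 at 19.5 ± 0.283 TPM. Past 2-fold were 0 of 22 tested genes of the signalling list, 0 of 10 of the desmosome list and 0 of 9 of the filament list, all near the 0.498% over all genes. Intervals were apart and lower in replicate 2 for 4, 4 and 3 of these genes, beside 10.6% of all genes tested. They were apart and higher for 2, 0 and 0, beside 7.07%.

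Markers of other cell types that share single members were present too. All 16 fibroblast genes, relevant to Tcf21, were detected and summed to 1696 and 1814 TPM, with Col3a1 at 463 ± 14.7 TPM, Postn at 266 ± 17.2 TPM, Col1a1 at 257 ± 4.97 TPM and Dcn at 222 ± 21.9 TPM (n = 2). Their intervals were apart and higher in replicate 2 for 9 of 16 genes, beside 7.07% of all genes tested, and lower for 1, while Tcf21 had a log2 ratio of -0.01. Other cell types had more genes apart and lower in replicate 2, with 7 of 10 for cardiomyocytes, 5 of 10 for endothelium and 5 of 10 for smooth muscle and pericytes, beside 10.6% of all genes tested. Higher were 1, 0 and 1 of these, beside 7.07%. The shifts were small, with a median log2 ratio of 0.13 for fibroblast genes. It was -0.06 for cardiomyocytes, -0.08 for endothelium and -0.11 for smooth muscle and pericytes. Intervals are narrow for genes with many counts, so that Pln was apart at a log2 ratio of -0.05. The shares over all genes were not matched for counts, and a difference in cell make-up was not tested. All 10 endothelial genes were detected (358 and 347 TPM), led by Egfl7 (120.4 and 120.8 TPM), Pecam1 (48.1 and 45.0 TPM), Emcn (45.7 and 45.8 TPM) and Tie1 (36.5 and 32.8 TPM). All 10 smooth muscle and pericyte genes were detected as well (1256 and 1011 TPM), led by Acta2 (1130 and 884 TPM), Tagln (32.3 and 38.2 TPM), Cnn1 (20.3 and 21.7 TPM) and Kcnj8 (18.2 and 16.7 TPM). Thymus and stratified epithelial genes were detected in 2 of 8 cases (Ccl25 and Krt14, with sums of 5.22 and 6.43 TPM). Liver genes were detected in 2 of 10 cases (Ahsg and Apoa2, with sums of 15.8 and 14.7 TPM).

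**Figure D4:**
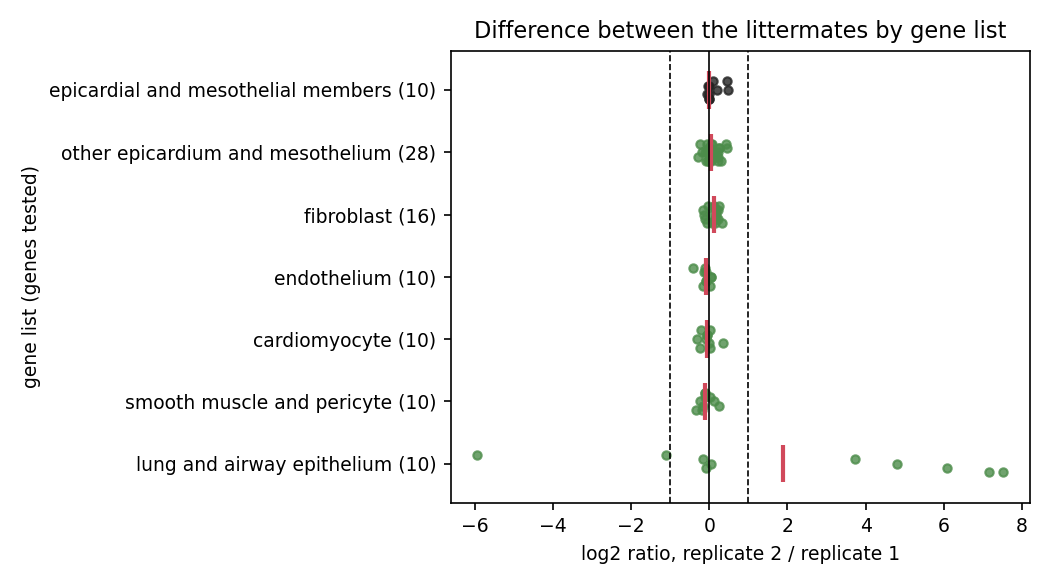
Log2 ratio of replicate 2 to replicate 1 for each tested gene of 7 lists, with the number of genes in brackets, red bars at the medians and dashed lines at 2-fold. The 10 epicardial and mesothelial genes lie between -0.06 and 0.49, and the lung and airway genes spread from -5.94 to 7.53.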

How the data were processed

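Each library was made from total RNA of 1 heart, extracted with Ambion mirVana, from 10 ng and fragments above 200 bases, per the labels. The authors deposited a gene and a transcript table per library, on mm10 with GENCODE M4 per the read-me; column names are those of RSEM, and the aligner is a detail not given in the sources used here, as are all versions. The deposited expected counts are estimates of reads and were not normalized. TPM and FPKM values, per the file headers, were divided by effective length and scaled by the authors. The deposited signal columns hold posterior SDs of counts and credibility bounds of TPM, whose width is not stated. The deposited percent column gives the share of a gene's TPM held by a transcript.

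From these files, 42462 of 43346 Ensembl genes were given symbols by identifier, and coordinates came from GENCODE M21 on the same build. Ratios used TMM scaling from edgeR 4.0.16 in R 4.3.3, or DESeq2 1.42.0 size factors as an alternative, and were checked on simulated data. No p-value was computed, because 2 littermates of 1 group give no contrast, and intervals measure reads rather than animals. Tables were handled with Python 3.11.15 and pandas 2.3.3.

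The members, lists and rules were chosen with earlier results of these data known. Named were all members, their fixed pairs, the 4 most abundant detected genes of each list, genes past 2-fold, and all uroplakins and Aldh1 relatives. Chosen with their values in view, outside that rule, were Mslnl, Wt1os, Gm10824, Gm36026, Gm48124, Epcam, Cdh1, Grhl2, Evpl, Krt80, Krt5, Nkx2-1, Cldn18, Foxj1, Sftpd, Sftpa1, Slc34a2, Tbx18, Sema3d, Scx, Bnc1, Calb2, Epo and Fgf20, as was the sum over Krt7, Krt8, Krt18 and Krt19.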

Additional observations from a re-analysis of the deposited data

How the results depend on the processing

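All 10 genes were detected at 0.5 TPM, 1 FPKM, 1 posterior mean TPM and in either replicate alone, and 9 at 5 TPM. None was past 2-fold under DESeq2 size factors, total counts, TPM + 0.5, a prior count of 0.5 or looser count minimums. The median ratio of the set lay between -0.02 and 0.01 over these settings. The share of all genes past 2-fold was 0.498% with a mean count of at least 50, 2.54% with at least 10 and 8.04% with no minimum, where genes with few counts enter. Of 12 pairs, 7 were called. Leaving out a replicate gave 9 to 10, but a single pup leaves only the interval condition of the rule, so those counts are no check on it. No paired analysis was possible because there was 1 group. The split among Wt1 transcripts was imprecise, with posterior SDs of 20.2 to 28.4 counts, and 2 libraries give no test of any difference between pups.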
